A study of Cucumis sativus with 4 samples.

Results

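In young cucumber fruits, 133 genes were abundantly read in the wild type (WT) and stood at least 4-fold lower in OX-29, a line that overexpresses CsFUL1. They were selected on their own measured levels from the 17180 genes listed. The WT mean had to reach 200 CPM (reads assigned to the gene for every 1000000 in that library), and the smaller WT value had to be at least 4 times the larger OX-29 value. The larger OX-29 value also had to reach 1 CPM, and the WT replicates had to lie less than 3-fold apart. Since these values chose the genes, the difference between the lines is a description here and carries no test.

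WT was the inbred cucumber line R1407 (Cucumis sativus), with long fruits. OX-29 was R1407 transformed with the coding sequence of CsFUL1 behind the 35S promoter of cauliflower mosaic virus, and its fruits were short. Both lines were sampled as young fruits 4 days before anthesis, the opening of the flower, with 2 libraries described as biological replicates per line. OX-29 was the sole transformed line sampled, and 35S drives a gene in most tissues, so effects of CsFUL1 and traits of this transformed line cannot be told apart. The series title places CsFUL1 upstream of CsSUP and of auxin transport, and the comparison asks which transcripts differ between long and short fruits.

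CsFUL1 belongs to the MADS-box transcription factors, proteins that bind DNA as dimers or larger complexes and switch other genes on or off. Its relative FRUITFULL is known from Arabidopsis, where it acts in meristems, leaves and the growing fruit wall. A cucumber ovary before anthesis grows mainly by cell division, and its most abundant messenger RNAs come from the genes that its dividing and differentiating cells use most. Transcripts that are plentiful in one genotype and scarce in another mark large shifts in what the RNA pool is made of. They do not tell whether fewer cells of a type or less RNA per cell is the reason, and these cannot be told apart in whole fruits.

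The genes are known here by identifier alone, because the RefSeq gene table at hand, with 23999 genes, holds 0 of the 133 identifiers. No gene name, function, protein or promoter sequence is therefore given for any of them. Checks of the fruit label against tissue markers and of the line labels against the level of CsFUL1 were not made for the same reason. CPM is not per length, so a gene can take more reads because its transcript is longer. The order of genes by CPM below is an order by reads, and only ratios of the same gene between libraries are read as differences.

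The libraries held 16326412 to 19824797 reads of listed genes. In these libraries 1 read equalled 0.0504 to 0.0613 CPM, and the member with the fewest reads in a library had 6 of them. The median tested gene had a log2 fold change of -0.38 in OX-29 against WT on the deposited scale and of -0.02 after median-of-ratios scaling, which centres the libraries on their typical gene. On that scale 80 genes met the rule, 79 of them among the 133. Of the 54 members that no longer met it, 31 missed the 4-fold limit alone, 13 the WT mean of 200 CPM alone and 10 both, so membership near either limit depended on the scaling.

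Of the 843 genes with a WT mean of at least 200 CPM, 148 were separated at least 4-fold. Members made up 133 of the 843, or 15.8%. In the opposite direction, 7 of the 843 genes had a smaller OX-29 value at least 4 times the larger WT value. Choosing genes for a high WT level favours lower values in the other line, so the counts of the directions are not comparable.

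The other 15 separated genes were left out by the remaining conditions. In 9 of them both OX-29 libraries lay under 1 CPM, in 5 the WT replicates were at least 3-fold apart, and 1 met both exclusions. The excluded genes included Csa2G024440, with 3962 and 13938 CPM in WT replicates 1 and 2 and 518 and 875 CPM in OX-29 replicates 1 and 2. Its replicate ratio of 3.52 in WT was the lowest among the 5 genes left out by that condition alone, and that of the member Csa6G141420, at 2.86, was the highest among members.

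At the other limits the values ran on without a gap. The member Csa5G348050 had a separation (smaller WT over larger OX-29 value) of 4.01, and Csa1G569380, just outside, had 3.95. Csa1G569250 entered with a WT mean of 200.3 CPM, and Csa6G495070, at 198 CPM, did not. Csa7G056500 had a larger OX-29 value of 1.08 CPM, while Csa1G042700 missed the floor with 0.98 CPM. By separation, 94 of the 843 genes lay at 2 to under 3, 56 at 3 to under 4 and 58 at 4 to under 6, the last range being wider than the others.

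**Figure D1:**
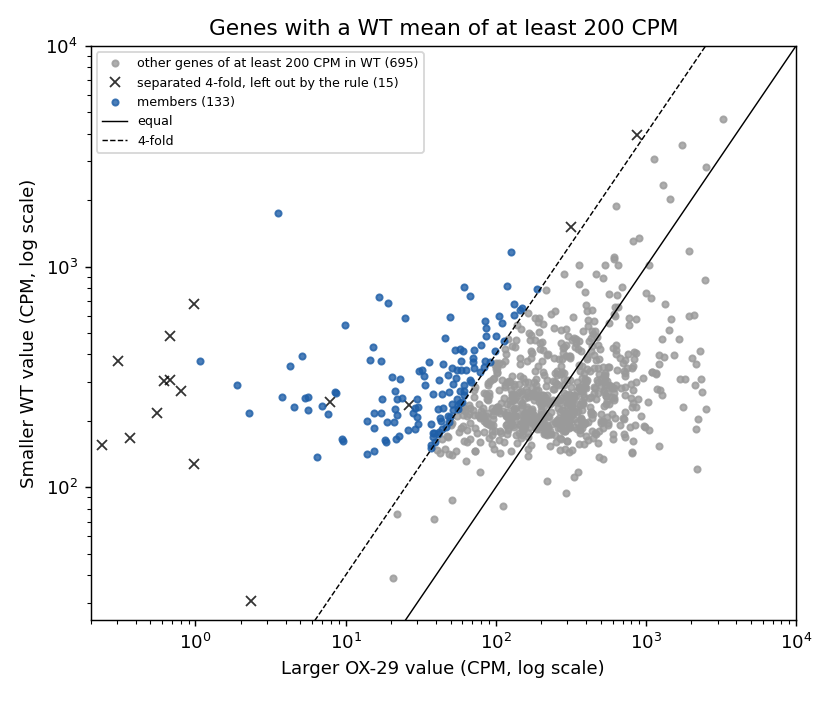
Smaller WT value against larger OX-29 value (both in CPM, log scales) for the 843 genes with a WT mean of at least 200 CPM, 1 point per gene, with lines of equality and of a 4-fold difference. The 133 members lie above the 4-fold line without a gap to the genes below it, and the 15 crosses mark separated genes that the rule left out.

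Together the members took 5.37% of the reads in WT replicate 1 and 5.18% in WT replicate 2. They took 0.482% in OX-29 replicate 1 and 0.589% in OX-29 replicate 2. Exact 95% binomial intervals for these shares reach from 5.36% to 5.38%, 5.17% to 5.20%, 0.479% to 0.485% and 0.585% to 0.592% in the same order, and they cover counting error only. The summed level was 9.85 times higher in WT, with means of 5.28% ± 0.129 (SD, n = 2) in WT and 0.535% ± 0.0754 (SD, n = 2) in OX-29. The other 710 genes with at least 200 CPM in WT took 27.1% and 29.7% of the WT reads and 24.3% and 24.9% of the OX-29 reads.

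The reads were spread over many members. The 10 members with the most WT reads held 19.7% of the set's reads in WT and 13.8% in OX-29. This spread is partly set by the rule. Its limit on the WT replicates left out Csa2G024440 and Csa2G023940, whose WT means of 8950 and 3993 CPM exceeded those of all members. WT means ran from 200.3 to 2411 CPM with a median of 317 CPM, and 2 members exceeded 1000 CPM. OX-29 means ran from 0.936 to 147 CPM with a median of 36.6 CPM. No member had 0 reads in any library, and 1 member, Csa7G056500, had an OX-29 mean under 1 CPM.

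In OX-29 most members were read at the level of mid-ranking genes. That they were read at all was set by the rule, which asks for 1 CPM in the larger OX-29 value. Among all 17180 genes, ranked by reads, they held ranks 10 to 839 in WT with a median of 351. In OX-29 they held ranks 1535 to 15677 with a median of 6127, and 0 of them were among the 1000 genes with the most reads. Of the 133, 44 had an OX-29 mean of 50 CPM or more, 70 had 10 to under 50 CPM and 18 had 1 to under 10 CPM. The median member kept 11.0% of its WT level, and the range was 0.106% to 23.8%.

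**Figure D2:**
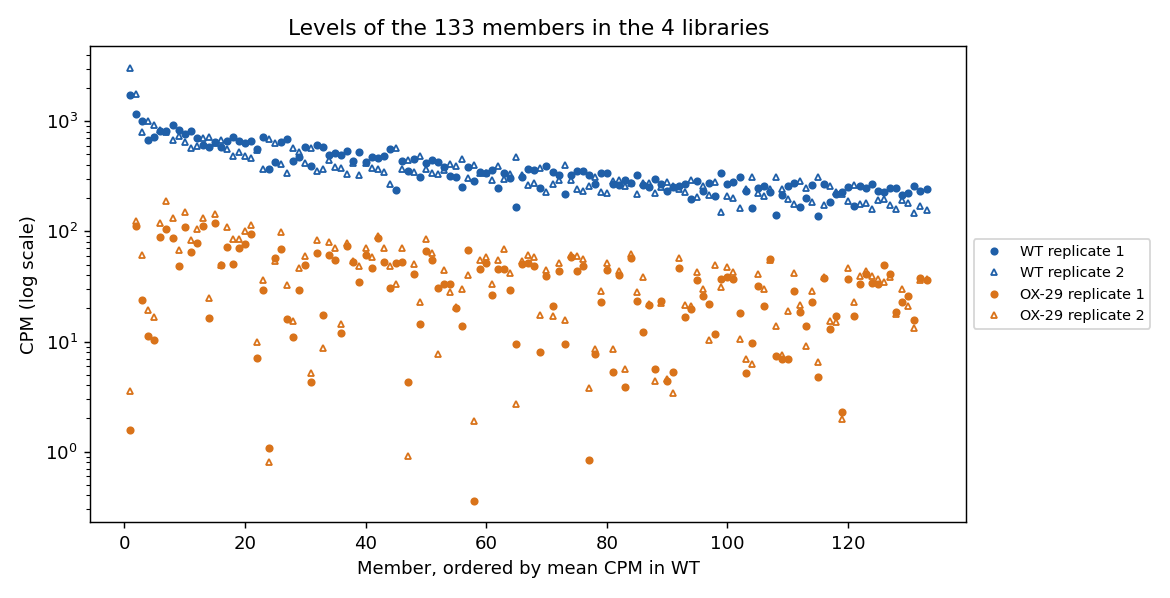
CPM (log scale) of each of the 133 members in the 4 libraries, with members ordered by their WT mean, filled circles for replicate 1 and open triangles for replicate 2. The WT values (blue) lie above all OX-29 values (orange) of the same gene by construction. On the log scale the OX-29 values span a wider fold range, from 0.359 to 189.6 CPM, than the WT values, from 137 to 3079 CPM. The rule sets a higher lower limit for WT than for OX-29, so these ranges are partly set by it.

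Csa1G604040 took the most reads of the set in WT and also had the widest separation among members, 491. Some genes left out for OX-29 values under 1 CPM were separated more widely, up to 1217 for Csa7G044980. Csa1G604040 stood at 1744 and 3079 CPM in WT replicates 1 and 2 and at 1.56 and 3.55 CPM in OX-29 replicates 1 and 2. The OX-29 libraries held 26 and 58 reads of it, and it went from rank 10 in WT to rank 14105 in OX-29. On the log2(CPM + 0.5) scale the difference of the line means was -9.65 ± 0.41 (SE, 2 libraries per line). Here and below, the SE of a log2 fold change comes from a limma fit. It draws on the variances of all tested genes and not on the gene's own replicates alone. Csa1G604040 alone made up 4.57% of the set's WT reads and 0.0477% of its OX-29 reads.

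Csa1G574870, the next by WT reads, kept a higher level in OX-29. It had 1165 and 1787 CPM in the WT replicates and 111 and 126 CPM in the OX-29 replicates. The WT replicates lay farther apart than the OX-29 replicates, and the log2 fold change was -3.60 ± 0.27 (SE).

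The next members took similar numbers of WT reads but differed in what was left in OX-29. Csa2G374630 had 1002 and 807 CPM in WT replicates 1 and 2 and 23.7 and 61.1 CPM in OX-29 replicates 1 and 2. Csa4G648520 had 684 and 1016 CPM in WT and 11.1 and 19.2 CPM in OX-29. Csa4G154320 resembled it, with 728 and 931 CPM in WT and 10.4 and 16.7 CPM in OX-29. These 3 genes kept 4.69%, 1.79% and 1.63% of their WT means, and all 3 were higher in OX-29 replicate 2 than in replicate 1.

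A second trio with much the same WT reads kept far more in OX-29. Csa3G808360 had 814 and 831 CPM in the WT replicates and 88.6 and 119 CPM in the OX-29 replicates. Csa7G009740 had 821 and 793 CPM in WT and 105 and 190 CPM in OX-29, where its mean of 147 CPM was the highest of the set. Csa2G369060 had 928 and 680 CPM in WT and 87.3 and 132 CPM in OX-29. They kept 12.6%, 18.2% and 13.6% of their WT means. Across the 133 members the WT mean and the separation had a Spearman correlation of 0.11. The rule sets a limit on both values, and the genes share the same 4 libraries, so the correlation is a description only.

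The members with the widest separation after Csa1G604040 were nearly unread in OX-29. Csa7G056500 had 372 and 694 CPM in WT replicates 1 and 2 but 1.08 and 0.796 CPM in OX-29 replicates 1 and 2, or 18 and 13 reads. Csa1G062960 had 290 and 397 CPM in WT and 0.359 and 1.90 CPM in OX-29, or 6 and 31 reads. Csa2G223740 had 227 and 217 CPM in WT and 2.27 and 1.96 CPM in OX-29, or 38 and 32 reads.

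With so few OX-29 reads, the size of these ratios is loosely fixed. The ratio of pooled reads, WT over OX-29, was 927 for Csa1G604040 with an exact 95% counting interval of 749 to 1163. It was 554 for Csa7G056500 with an interval of 390.4 to 816, and 303 for Csa1G062960 with an interval of 220 to 431. Csa2G223740 had a ratio of 105 with an interval of 82.9 to 135. The intervals of the last 2 genes do not overlap, but they leave out the spread between replicates, which reached 5.29-fold for Csa1G062960 in OX-29.

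At the other end, 4 members had separations of 4.01 to 4.05. Csa5G348050 had 227 and 197 CPM in the WT replicates and 49.1 and 34.6 CPM in the OX-29 replicates. Csa2G442260 had 226 and 242 CPM in WT and 55.9 and 55.4 CPM in OX-29, and with a log2 fold change of -2.06 ± 0.15 (SE) it was the least lowered member. Csa3G110630 and Csa3G646520 had WT means of 220 ± 47.2 and 215 ± 78.2 CPM (SD, n = 2) and OX-29 means of 41.8 ± 6.52 and 36.7 ± 4.17 CPM (SD, n = 2). None of these 4 genes met the rule after median-of-ratios scaling.

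Over all 133 members the log2 fold change ran from -9.65 to -2.06, with a median of -3.17 and a median standard error of 0.23. The median over the 16982 tested genes was -0.38, and over the other 710 genes with at least 200 CPM in WT it was -0.43. The members' median is set by the rule. By separation, 56 members lay at 4 to under 6, 22 at 6 to under 8, 30 at 8 to under 16 and 25 at 16 or more. The last class held 1.19% of the WT reads and 0.0180% of the OX-29 reads, and the first held 2.09% and 0.344%.

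In a limma fit across all 16982 tested genes, 133 of the 133 members were called lower (Benjamini-Hochberg adjusted p under 0.05), beside 38.4% of all genes tested. Both OX-29 libraries lay below both WT libraries in every member by construction, and in 52.2% of tested genes. The rule used the same contrast and the same libraries, so nothing is read from either count. All 133 members passed the filter on low values, a mean of at least 1 CPM.

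How the members differed between replicates of a line was mostly left free by the rule, which does not ask which replicate is higher. In OX-29, 106 of the 133 members were higher in replicate 2 and 27 in replicate 1. Of the other 710 genes with at least 200 CPM in WT, 62.1% were higher in OX-29 replicate 2, and of all tested genes 48.0%, against 79.7% of the members. The excess was not particular to members, since other abundant genes near the 4-fold limit shared it. At a separation of 3 to under 4, 47 of 56 genes were higher in OX-29 replicate 2, and at 2 to under 3, 71 of 94 were. At 1 to under 2 the count was 149 of 219. Nor was it even within the members. At a separation of 4 to under 6, 49 of 56 were higher in OX-29 replicate 2, and at 6 to under 8, 20 of 22. At 8 to under 16 the count was 20 of 30, and at 16 or more 17 of 25. The median log2 ratio of replicate 2 over replicate 1 was 0.27 in members, 0.08 in the other abundant genes and -0.01 in all tested genes. After median-of-ratios scaling 107 members were higher in replicate 2. Members of a library vary together, so these counts describe a single pair of libraries and were not tested.

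**Figure D3:**
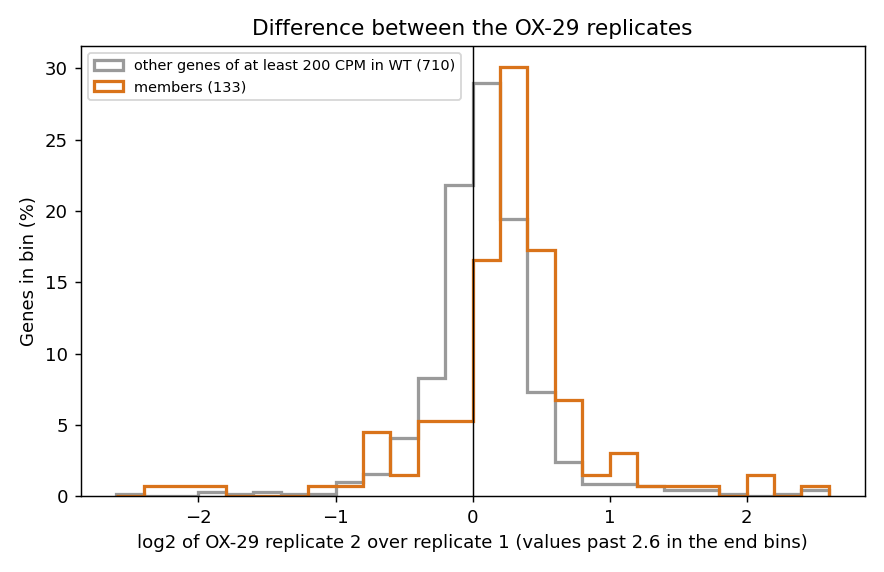
Percentage of genes by the log2 ratio of OX-29 replicate 2 over replicate 1, for the 133 members (orange) and the other 710 genes with a WT mean of at least 200 CPM (grey). The members are shifted to the right of 0, with a median of 0.27 against 0.08. Of the other genes, the 56 with a separation of 3 to under 4 had a median of 0.23.

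Members lay somewhat farther apart between the OX-29 replicates than other abundant genes, a difference that was not tested. The larger OX-29 value was 1.27 times the smaller in the median member, against 1.15 times in the other abundant genes, whose OX-29 levels are higher. The quartiles of this ratio over the members were 1.16 and 1.51. More than 2-fold differences occurred in 14 members (10.5%) and in 30 of the 710 others (4.23%). The members farthest apart were Csa1G062960, 5.29-fold, Csa7G222880, 4.62-fold, and Csa3G026150, 4.54-fold. They did not share a direction: Csa7G222880 had 4.25 and 0.919 CPM in OX-29 replicates 1 and 2, while Csa3G026150 had 0.837 and 3.80 CPM. Their WT levels were 354 and 446 CPM for Csa7G222880 and 328 and 256 CPM for Csa3G026150, so the lines stayed far apart in both.

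Between the WT replicates, 85 members were lower in replicate 2 and 48 were higher. In the other 710 abundant genes 52.0% were lower in WT replicate 2, and in all tested genes 56.4%, against 63.9% of members. The direction differed with how far a member was lowered. Of the 56 members with a separation of 4 to under 6, 49 were lower in WT replicate 2, with a median log2 ratio of replicate 2 over replicate 1 of -0.39. In the next class, 14 of 22 were lower. At 8 to under 16 the directions were even, 15 and 15. Of the 25 members at 16 or more, 7 were lower and 18 were higher, with a median of 0.28.

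The same direction extended below the 4-fold limit. Of the 56 genes with a separation of 3 to under 4, 46 were lower in WT replicate 2, and of the 94 at 2 to under 3, 71 were. Of the 219 genes at 1 to under 2, 110 were lower, an even division. After median-of-ratios scaling 46 of the 56 members of the lowest class and 6 of the 25 of the highest were lower in WT replicate 2. Across the members, the separation and the log2 ratio of WT replicate 2 over 1 had a Spearman correlation of 0.48, and of 0.41 when the ratio of line means replaced the separation. Both are descriptions over 133 genes that share the same pair of WT libraries. The classes were set after the values had been seen. What differed between the WT replicates is not stated in the labels, and its part in the pattern was not tested.

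**Figure D4:**
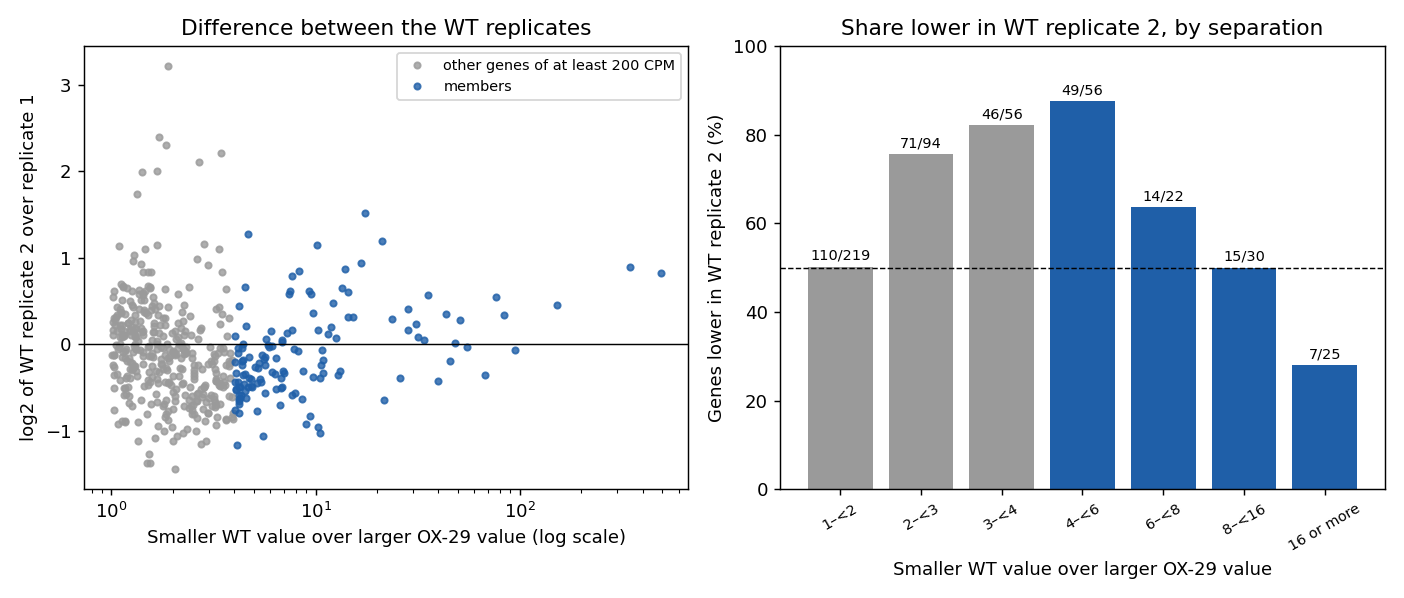
Left, log2 ratio of WT replicate 2 over replicate 1 against the separation (smaller WT over larger OX-29 value, log scale). Each point is 1 gene with a separation of at least 1. Members are blue and other genes with at least 200 CPM in WT are grey. The 15 separated genes that the rule left out are in neither panel. Right, percentage of genes lower in WT replicate 2 in each class of separation, with the counts above the bars and a dashed line at 50%; the share is 87.5% at 4 to under 6 and 28% at 16 or more.

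The WT replicates differed by 1.31-fold in the median member and by more than 2-fold in 7 members. The widest difference was in Csa6G141420, with 166 and 473 CPM in WT replicates 1 and 2 and 9.51 and 2.70 CPM in OX-29 replicates 1 and 2. Csa3G732470 followed, with 238 and 573 CPM in WT and 51.1 and 33.6 CPM in OX-29. Csa1G042280 had 137 and 312 CPM in WT and 4.72 and 6.49 CPM in OX-29. All 3 were higher in WT replicate 2, and the first 2 were higher in OX-29 replicate 1, so no common order of replicates held across the lines. Over all members the replicate differences of the lines had a Spearman correlation of 0.06.

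By identifier, whose first digit gives the chromosome in the cucumber naming scheme, members lay on all 7 chromosomes. Chromosome 3 held 27 of them, chromosome 1 held 26 and chromosome 2 held 23. Chromosome 5 held 18, chromosome 7 held 15, chromosome 6 held 13 and chromosome 4 held 11. As a share of the genes with at least 200 CPM in WT, members made up 20.0% on chromosome 2 and 18.8% on chromosome 1, and 10.6% on chromosome 4 and 9.22% on chromosome 6. These shares are counts of 11 to 27 genes and were not tested.

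**Figure D5:**
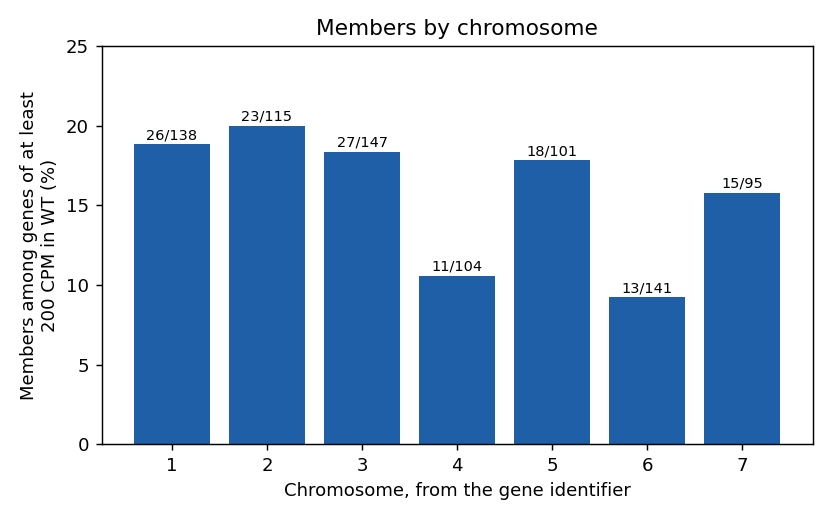
Members as a percentage of the genes with a WT mean of at least 200 CPM on each chromosome, with both counts above each bar. The bars run from 9.22% on chromosome 6 to 20.0% on chromosome 2.

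Few members were neighbours. The order of listed genes by identifier put 2 pairs of members side by side. Csa1G050240 had 832 and 734 CPM in WT replicates 1 and 2 and 48.6 and 67.3 CPM in OX-29 replicates 1 and 2, and beside it Csa1G050250 had 393 and 230.0 CPM in WT and 39.5 and 44.5 CPM in OX-29. The other pair was Csa3G110620, with 667 and 557 CPM in WT and 72.4 and 110 CPM in OX-29, and Csa3G110630, with 254 and 187 CPM in WT and 37.2 and 46.4 CPM in OX-29. All 4 genes were lower in WT replicate 2 and higher in OX-29 replicate 2, as were 69 of the 133 members. The same held for 250 of the other 710 genes with at least 200 CPM in WT and 4818 of the 16982 tested genes. No joint pattern was tested. Whether such neighbours are copies of each other is not known here, nor is the treatment of reads that fit more than 1 gene, so the split of reads within a pair is uncertain.

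A further 3 pairs lay within 3 listed genes, named here after their values had been seen. Csa2G354000 and Csa2G354030 were alike in the depth of the difference, with log2 fold changes of -5.75 and -5.96. The former had 255 and 257 CPM in the WT replicates and 5.32 and 3.43 CPM in the OX-29 replicates, and the latter had 559 and 546 CPM in WT and 7.12 and 9.86 CPM in OX-29. Csa1G168880 and Csa1G168900 were less alike, at -4.08 and -2.19, and Csa5G212590 and Csa5G215120 stood at -2.94 and -2.68. The remaining 123 members had no other member within 5 listed genes.

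The genes next to members resembled genes in general in how often they reached 200 CPM in WT. The 260 listed neighbours that were no members had a median WT level of 37.2 CPM and a median OX-29 level of 22.0 CPM. Of these neighbours 13, or 5.0%, reached 200 CPM in WT, beside 4.91% of all listed genes. Among the 255 tested neighbours the median log2 fold change was -0.50, beside -0.38 for all tested genes, and 42.0% were called lower by limma, beside 38.4%. A separation of at least 4 in the same direction was found in 15.4% of the neighbours and in 13.7% of all listed genes that were no members. These shares are close to the background, and no difference was tested.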

How the data were processed

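Messenger RNA of young cucumber fruits was selected with oligo(dT) beads and sequenced as paired ends, per the labels' protocols. TopHat and HTSeq are named in the submitters' processing notes, without versions, and the settings, use of strand, genome build and annotation were not given in the sources used here. The deposited table holds CPM, computed by the authors, in 1 column per library for 17180 genes, and each column sums to 1000000 over these genes. All values were whole multiples of the column's smallest value (100% within 0.001 reads), so whole reads were recovered. No per-sample column was left out.

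The rule was applied to the deposited CPM of the 4 libraries. The background of calls came from limma 3.58.1 in R 4.3.3 on log2(CPM + 0.5), with line as the only term, a mean-variance trend and p-values adjusted by Benjamini-Hochberg over all 16982 genes whose mean reached 1 CPM. Its calls numbered 6522 lower and 3155 higher genes. A chi-square of the reads came to 90.8 per degree of freedom between the WT replicates and 30.6 between the OX-29 replicates, so neither pair was a library deposited again. The libraries are described as biological replicates, but the number of fruits or plants behind each is not in the labels. The p-values therefore reflect the spread between libraries, with variances drawn from all tested genes, and part of that spread may be technical. Alternatives used other limits of the rule, pseudocounts, filters and scalings, a replicate block, edgeR 4.0.16 and DESeq2 1.42.0 on the recovered reads, and each library left out in turn. The limma step was tested on simulated data.

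The members, lists and tests were chosen with earlier results of these data known. Members were named if they were among the 8 with the highest WT mean, the 4 with the largest or smallest separation, the 3 with the widest OX-29 or WT replicate ratio, next to another member, or at a limit of the rule. Lists of pathway genes and cell type markers were to be formed from gene descriptions, and no identifier matched any. Identifiers are printed as in the table, with no name.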

Additional observations from a re-analysis of the deposited data

How the results depend on the processing

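The number of genes that met the rule was 133 as reported. It was 80 with median-of-ratios scaling and 82 with TMM scaling, 79 and 81 of which were members. With a fold of 8 it was 55 and with a WT mean of at least 400 CPM it was 46, all of them members, and with a WT mean of at least 100 CPM it was 302. A fold of 3, a WT replicate ratio under 2 and the removal of either of the remaining limits gave 126 to 188. With a library left out, it was 138 to 231. The highest count came without WT replicate 2, where 125 of the 231 were members. Without WT replicate 1 the count was 163, of which 114 were members. Each such count compares fewer values, and its limits rest on the libraries that remain, so some members no longer met them.

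The median log2 fold change of the members was -3.17 as reported. It was -2.80 with median-of-ratios scaling, -2.82 with TMM scaling, -2.81 with edgeR and -2.80 with DESeq2. The other pseudocounts gave -3.19 to -3.04, and leaving out each library gave -3.36 to -2.999. The lines share replicate numbers that no label ties to a pairing, and across tested genes the replicate difference in OX-29 had a Pearson correlation of -0.02 with that in WT. A replicate block left the median at -3.17 and gave 6390 lower and 3030 higher genes.

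All 133 members were called lower with pseudocounts of 0.1 and 1 CPM, the other filters and median-of-ratios scaling. The same held with a replicate block, edgeR and DESeq2. These settings called 4917 to 6605 of all genes lower, and nothing is read from the members' count. Over all genes, leaving out each library gave 4198 to 6224 lower and 1603 to 3254 higher genes. The lowest counts were those without OX-29 replicate 1. With OX-29 replicate 2 left out, 4222 genes were lower and 1710 higher. After median-of-ratios scaling there were 4917 lower and 4640 higher genes, so the share of higher calls depends on the scaling.

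The members' share of WT reads was 5.04% without Csa1G604040. Pairs of neighbouring members numbered 5 within 3 listed genes and 5 within 5. The members had at least 6 reads in each library, in part because the rule asks for 1 CPM in the larger OX-29 value. Depth sets the width of the ratios of members with few OX-29 reads.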
